A study of Mus musculus with 4 samples.

Results

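The Hoxc cluster is the run of 9 homeobox genes on mouse chromosome 15 that holds Hoxc13, Hoxc12, Hoxc11, Hoxc10, Hoxc9, Hoxc8, Hoxc6, Hoxc5 and Hoxc4, in order of rising coordinate. The members were taken by name from the RefSeq annotation, 9 of its 21887 protein-coding genes, and all 9 were found. Their chromatin was read from the peaks over the cluster (mm10, chr15:102921131-103036856, 115.7 kb) and over 200 kb on either side. The samples were 4 ATAC-seq libraries, replicates 1 to 4 of the only group, each from the lung of wild-type mouse embryos at E15.5 and made from 60000 nuclei after snap-freezing, per the labels. ATAC-seq maps open chromatin by the places where the Tn5 transposase inserts adapters into DNA. All samples analysed here shared this genotype and age with no treatment named, and the labels did not say whether the libraries came from separate embryos, so the spread between them may be technical.

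Hox genes encode homeodomain transcription factors that give cells their position along the head-to-tail axis. Within each of the 4 mammalian clusters, genes at the low-numbered end are switched on earlier and closer to the head, and genes at the high-numbered end later and closer to the tail. Clusters that are not in use are held compact by Polycomb complexes. In the developing lung the Hoxa and Hoxb genes of the low-numbered groups are the best known, with Hoxa5 needed in the mesenchyme, while Hoxc genes are known mainly from vertebrae, limbs, motor neurons, skin and hair.

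The 4 peak lists held 134503, 186199, 211678 and 192842 peaks on the assembled chromosomes, with 47, 79, 89 and 83 in the interval and 10, 25, 22 and 20 in the cluster. Replicate 1 stood apart, with the fewest peaks, 78.6 Mb under peaks against 141 to 162 Mb, and a median fold enrichment of 8.99 against 3.73 to 3.90. Its peak names carried a French word for fresh and those of the others the word frozen, while the labels describe all lungs as snap-frozen. Values are therefore given for each library. A peak of every library lay within 1 kb of an annotated gene end for 66.7% of all 21887 protein-coding genes. The same held for all 7 lung mesenchyme and all 6 lung epithelium markers, and for 3 of 4 heart, 0 of 4 liver, 0 of 3 skin and oesophagus, 4 of 4 limb and body wall, 2 of 4 spinal cord and 1 of 3 posterior trunk markers. An open gene end was thus not particular to lung genes, and it is not a measure of transcription. In whole lung, fewer cells with open chromatin and less opening per cell cannot be told apart.

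Sequences are given for the starts on which the peaks bear. RefSeq (GRCm38.p6) gave an upstream sequence with strand for only 1 Hoxc gene, Hoxc4. It is shown because its start lay under a peak in all 4 libraries. It is set beside those of the outermost Gm30528 start and of Cistr, a non-coding RNA gene of the far Hoxc13 side. Both lie inside regions shared by all 4 libraries, but the start itself was under a peak in 2 libraries for Gm30528 and 3 for Cistr. Gm30528 is a long non-coding RNA gene that runs against Hoxc4, and its outermost start lies beyond Hoxc4. Its starts at 103032274, 103032276 and 103032280 lie inside Hoxc4 and were under a peak in replicate 4 only. Each sequence is the 250 bases before the start, read 5′ to 3′ on the strand of the gene: Hoxc4 at chr15:103034145-103034394 (+), Gm30528 at chr15:103060556-103060805 (−) and Cistr at chr15:102746910-102747159 (−). Capitals mark matches, on either strand, to 7 searched motifs.
Hoxc4: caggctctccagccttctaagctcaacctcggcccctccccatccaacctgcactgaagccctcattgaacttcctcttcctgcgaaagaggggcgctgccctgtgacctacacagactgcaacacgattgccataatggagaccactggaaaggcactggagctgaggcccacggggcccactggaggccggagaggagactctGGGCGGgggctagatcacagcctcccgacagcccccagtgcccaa
Gm30528: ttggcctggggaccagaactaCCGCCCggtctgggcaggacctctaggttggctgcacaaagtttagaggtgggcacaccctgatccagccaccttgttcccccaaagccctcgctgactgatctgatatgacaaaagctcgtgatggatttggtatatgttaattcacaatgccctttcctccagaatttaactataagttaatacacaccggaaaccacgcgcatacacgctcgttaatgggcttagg
Cistr: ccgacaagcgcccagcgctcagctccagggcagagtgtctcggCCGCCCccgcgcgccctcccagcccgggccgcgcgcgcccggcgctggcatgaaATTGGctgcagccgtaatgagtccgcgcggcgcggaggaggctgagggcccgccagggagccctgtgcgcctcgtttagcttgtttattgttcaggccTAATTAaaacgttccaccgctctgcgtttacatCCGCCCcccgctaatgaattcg

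The motif for a joint PBX and HOX site was TGATTNAT, and the core site of HOX proteins alone was TAATTA. The site of MEIS proteins was written as TGACAG and that of the repressor and activator YY1 as GCCATNTT. Of the general promoter elements, the box rich in guanine and cytosine was searched as GGGCGG, the element of the basal factor TBP as TATAAA, and the CCAAT box by the letters of its name. The Hoxc4 sequence held 1 match, the guanine-cytosine (GC) box from −45 to −40 of the start, and the Gm30528 sequence 1 GC box from −229 to −224. The Cistr sequence held 2 GC boxes, 1 CCAAT and 1 HOX core. Of 32841 RefSeq promoter sequences of this length, 32.8% held a GC box, 33.9% CCAAT, 15.9% the MEIS letters, 12.4% the TBP element, 4.84% the HOX core, 3.91% the YY1 letters and 2.83% the PBX-HOX letters. GC content was 62.0% for Hoxc4, 50.4% for Gm30528 and 66.8% for Cistr, against a median of 52.4%. Their observed-to-expected CpG ratios were 0.34, 0.57 and 1.08, against a median of 0.37.

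A further stretch is shown because it lies just inside the annotated lower end of Hoxc6 and holds a PBX-HOX match. It is upstream of Gm29905, a non-coding RNA gene read in the opposite direction, at chr15:102998315-102998344 (−), and its capitals cover a HOX core and a PBX-HOX match that overlap by 1 base.
Gm29905 stretch: agggaaaaTAATTATTAATCAgattaataa

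The cluster also holds Mir196a-2, between Hoxc10 and Hoxc9, and Mir615, inside Hoxc5. miR-196 targets Hox mRNAs, Hoxb8 above all. The mature sequences are shown with the seed, bases 2 to 8, in capitals. miR-196a-5p is made from Mir196a-2 and from Mir196a-1 of the Hoxb cluster, and miR-196b-5p of the Hoxa cluster shares its seed, while both miR-615 arms have seeds of their own.
miR-196a-5p: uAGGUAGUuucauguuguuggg
miR-196b-5p: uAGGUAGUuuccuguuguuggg
miR-615-5p: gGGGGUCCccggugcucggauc
miR-615-3p: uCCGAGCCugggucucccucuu

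Peaks covered little of the cluster. The share of its bases under peaks was 3.21%, 10.5%, 12.1% and 11.4% in replicates 1 to 4, a mean of 9.31% ± 4.13 (SD, n = 4). Replicate 1 was lowest and the others lay close together. A peak's fold percentile, its rank by the authors' fold enrichment among all peaks of its own library, had a median of 23.3, 40.6, 30.9 and 45.7 over the cluster peaks. Many peaks share a fold, so the median fold of each list fell at percentiles of 50.5, 49.3, 51.6 and 45.7. The cluster median was thus below that of the list in replicates 1, 2 and 3 and equal to it in replicate 4, and in replicates 2 and 4 it equalled the median of the whole interval. The highest cluster peak of each library reached 63.6, 85.5, 85.5 and 76.4.

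**Figure D1:**
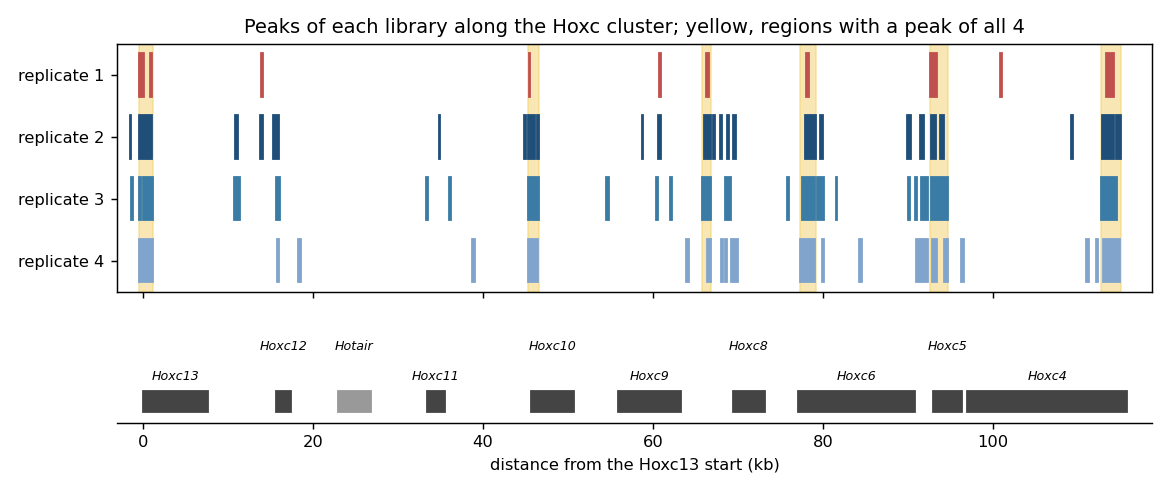
Peaks of replicates 1 to 4 (coloured blocks, 1 row per library) against distance from the Hoxc13 start in kb, with the 9 Hoxc genes and Hotair as boxes below. Yellow bands mark the 6 regions with a peak of every library, and the stretch around Hotair between Hoxc12 and Hoxc11 is empty in all 4.

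When peaks that touched or overlapped were joined across libraries, the cluster held 35 regions, 6 of them with a peak of every library. That was 17.1% of the cluster's regions, beside 21.5% of all 307572 merged regions. A further 4 were found in replicates 2 to 4 alone, and 1 in replicate 1 alone. Of the 6 shared regions, those of Hoxc13, Hoxc10, Hoxc6 and Hoxc5 lay at or just inside the annotated lower-coordinate end of the gene. The others lay at the RefSeq start inside Hoxc4 and between Hoxc9 and Hoxc8. The shares of all merged regions in replicates 2 to 4 alone, in replicate 1 alone or at a gene start were not counted.

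The region at the Hoxc13 start (chr15:102920665-102922388) had the highest single pileup of the cluster, 39 in replicate 1. It did not lead in each library, as the Hoxc4 region was higher in replicate 2, at 31, and the Hoxc5 region in replicate 4, at 17. Hoxc13 is required for hair and nail formation. Its percentiles were 63.6, 73.3, 85.5 and 73.9, and 39, 19, 26 and 16 reads or fragments were stacked at the summit in replicates 1 to 4. Summits lay between -316 and 278 bp of the annotated lower gene end, which is the start if, as is well known, all Hoxc genes are read from Hoxc13 towards Hoxc4, with negative values before it. Hoxc13 windows within 1 kb of the gene ends were covered by 20.7%, 30.8%, 32.4% and 36.6% (mean 30.1% ± 6.73), the highest mean of the 9 genes.

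Hoxc12 and Hoxc11, the next genes, had weaker and less regular peaks. Hoxc12 had a gene-end peak in replicates 2, 3 and 4 at percentiles of 29.98, 30.9 and 45.7, and none in replicate 1. Hoxc11 had one in replicates 2 and 3, at percentiles of 18.1 and 30.9. Between them lay Hotair, a long non-coding RNA gene, with no peak in any library, in a stretch of 14.7 kb free of peaks in all 4 (chr15:102939750-102954445).

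The Hoxc10 start (chr15:102966382-102967712) was again under a peak of every library. Hoxc10 acts with its paralogs in the lumbar region and the hindlimb. Its percentiles were 18.1, 71.1, 85.5 and 73.9, with summit pileups of 14, 18, 26 and 16, and the percentile of replicate 1 was far below the others. Summits lay between -189 and 327 bp of the lower gene end. Mir196a-2, just beyond Hoxc10, was under no peak, the nearest being 6676, 5637, 2186 and 5776 bp away.

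Hoxc9, which patterns the thoracic region, was the least covered at its ends, with a mean of 2.44% ± 4.89. Its windows held a peak in replicate 4 only, at the upper end. No library had a peak within 1 kb of its lower end, and its best peaks had percentiles of 3.68, 40.6, 18.4 and 45.7. The shared region between genes followed, from 2444 bp beyond Hoxc9 (chr15:102986889-102987951). Its percentiles were 28.5, 73.3, 79.0 and 61.5, and its summits lay between -2908 and -2741 bp of the lower end of Hoxc8, within 167 bp of each other. An early enhancer of Hoxc8 is known from transgenic mice to lie upstream of that gene, and its overlap with these peaks was not tested. Hoxc8, which patterns thoracic vertebrae and forelimb motor neurons, had a gene-end peak in replicates 2, 3 and 4 at percentiles of 29.98, 58.9 and 34.3, and none in replicate 1.

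Hoxc6, also a thoracic gene, was covered over 2.69%, 16.2%, 18.8% and 17.3% of its body. Replicate 1 was far below the others. The shared region lay inside the gene (chr15:102998411-103000304), with percentiles of 6.86, 61.2, 72.3 and 73.9 and summits 882 to 1191 bp beyond the lower end. The Gm29905 stretch printed above lay outside the peaks of all 4 libraries, since the region began beyond it.

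Hoxc5 was the most covered gene body, at 14.3%, 25.2%, 53.1% and 29.9% (mean 30.6% ± 16.4). Hoxc5 acts with Hoxa5, the gene in the series' title, in neck motor neurons. The region at its start (chr15:103013736-103015825) had percentiles of 45.5, 83.0, 80.5 and 76.4, and its summits, 272 to 395 bp beyond the lower end, were the most tightly placed of the 6. Of the 92 bases of the Mir615 hairpin, 80 were under a peak in replicate 2 and 92 in replicate 3, with none in replicates 1 and 4.

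Hoxc4, needed for the oesophageal muscle and the vertebrae, had its shared region inside the annotated gene (chr15:103033833-103036205). Percentiles were 57.0, 85.5, 81.8 and 73.9, and pileups 32, 31, 22 and 16. The RefSeq start of the sequence printed above, at position 103034395, lay under the peak in every library, and summits lay between -72 and 485 bp of it. Of the 250 printed bases, 11 were under the peak in replicate 1 and all 250 in the other replicates. The RefSeq promoter of 62.1% of 21263 protein-coding entries was touched by a peak in all 4 libraries. The windows of 1 kb around the annotated outer ends of Hoxc4 miss this start and held a peak only in replicates 2 and 4.

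**Figure D2:**
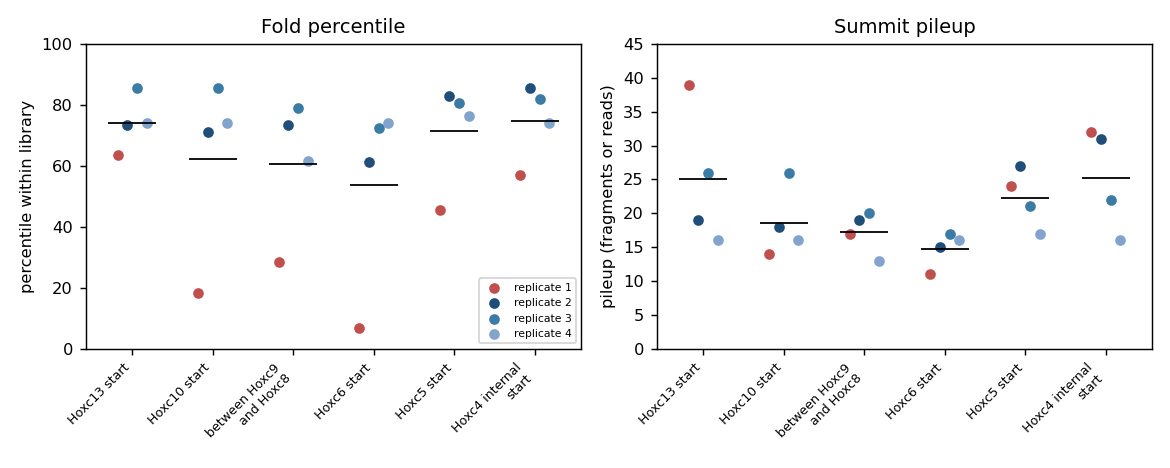
Fold percentile within the library (left) and pileup at the summit (right) for the 6 cluster regions with a peak of every library, 1 point per library and a line at the mean. The percentile of replicate 1 is the lowest in all 6, from 6.86 at Hoxc6 to 63.6 at Hoxc13, while its pileup is the highest at Hoxc13 and Hoxc4.

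The percentile of replicate 1 was below the mean of the other libraries in all 6 cluster regions, with a median difference of -38.7 percentile points. Over the 18 shared regions of the flanks the median difference was -12.9, with 16 of them below the mean of the others. Over all 66190 shared regions it was -5.92, with 73.8% below. Hoxa gave -6.55 over 22 regions (19 below), Hoxb -5.52 over 23 (21 below) and Hoxd -38.1 over 5 (all 5 below). Percentiles depend on the other peaks in a list, and the part of sample handling and depth in this difference was not tested.

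By the rule of a peak of every library within 1 kb of either annotated gene end, 4 of 9 Hoxc genes were open: Hoxc13, Hoxc10, Hoxc6 and Hoxc5. The background was 66.7% of 21887 protein-coding genes. Asking for at least 3 libraries gave 6 of 9, adding Hoxc12 and Hoxc8, beside 71.5% of all genes. The same 6 were open without replicate 1, beside 70.4%. With the lower end alone, taken as the start, the count was 4 of 9, beside 63.5% of 17492 genes whose start is known. Windows of 2.5 kb gave 7 of 9, with Hoxc8 and Hoxc11 left out (71.6% of all genes), windows of 0.5 kb 3 of 9 (63.5%), a summit inside the window 3 of 9 (60.5%), and peaks with a −log10 q of 5 or more 3 of 9 (63.7%).

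**Figure D3:**
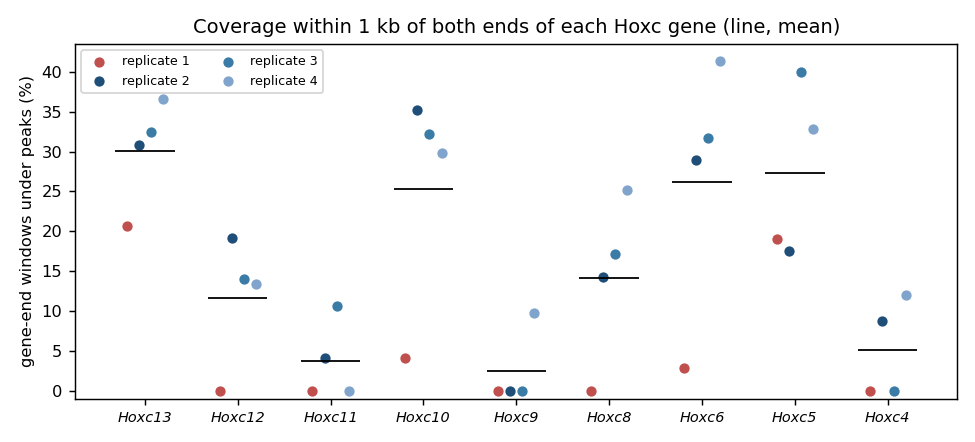
Share of bases under peaks, in percent, within 1 kb of both ends of each Hoxc gene, ordered from Hoxc13 to Hoxc4, with 1 point per library and a line at the mean. Means run from 2.44% for Hoxc9 to 30.1% for Hoxc13, and replicate 1 is at 0 for Hoxc12, Hoxc11, Hoxc9, Hoxc8 and Hoxc4.

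The cluster was covered less than Hoxa and Hoxb in every library. Hoxa was covered by 36.0%, 48.1%, 46.0% and 44.5% and Hoxb by 32.1%, 40.0%, 37.6% and 37.2%, with no overlap with the Hoxc values. Hoxc minus Hoxa was -34.3 percentage points ± 2.24 (SD, n = 4, lower in 4 of 4) and Hoxc minus Hoxb -27.4 ± 2.13 (lower in 4 of 4). Each had p = 0.125 in a two-sided exact sign-flip permutation test within libraries, the smallest that 4 libraries allow, and an adjusted p of 0.156 over the 5 differences tested. Hoxd was covered by 1.86%, 13.3%, 17.0% and 13.9%. Hoxc minus Hoxd was -2.22 ± 2.61, with Hoxc higher in replicate 1 and lower in the other 3 (exact permutation p = 0.25, adjusted 0.25). It was -3.41 without replicate 1 and -1.33 without replicate 3.

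Gene by gene, 15 of the 20 paralogs in the other clusters had a higher mean gene-end coverage than their Hoxc gene, 10 of them in every library. Hoxd10, Hoxd12 and Hoxd13 were among those not higher. Over all genes of a cluster, mean gene-end coverage was 16.2% for Hoxc and 15.6% for Hoxd, against 50.8% for Hoxa and 59.8% for Hoxb. Hoxc4 averaged 5.18% ± 6.12 against 96.4% for Hoxa4, 71.6% for Hoxb4 and 8.06% for Hoxd4, in windows that miss the RefSeq start of Hoxc4 under its shared region. Hoxc9 averaged 2.44% ± 4.89 against 15.3% for Hoxa9, 34.5% for Hoxb9 and 27.7% for Hoxd9, and Hoxc6 averaged 26.2% ± 16.5 against 89.1% for Hoxa6 and 53.7% for Hoxb6. No paralog of Hoxc13 had a higher mean than its 30.1%, with 30.1% for Hoxa13, 13.4% for Hoxb13 and 22.8% for Hoxd13. This order differed between libraries. All 3 paralogs were below Hoxc13 in replicates 1 and 2 and above its 32.4% in replicate 3, at 35.9%, 32.9% and 38.3%. Hoxa13 was also above it in replicate 4. Hoxd10, at 9.56%, was the only paralog below its Hoxc gene in every library. The Hox genes outside the cluster closest to the mean Hoxc profile over the 4 libraries were Hoxa9, with a mean absolute difference of 0.94 percentage points, Hoxd12 with 6.07 and Hoxd1 with 6.45.

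Within the cluster, the part from Hoxc8 to Hoxc4 was covered more than the part from Hoxc13 to Hoxc9 in every library. The former had 5.08%, 14.95%, 17.6% and 19.02% of bases under peaks and the latter 1.82%, 7.11%, 8.07% and 5.81%. The difference was 8.46 percentage points ± 4.13 (higher in 4 of 4, exact permutation p = 0.125, adjusted 0.156). The boundary, midway between Hoxc9 and Hoxc8, cut through the shared region between these genes and left its summits on the Hoxc8 side. With the boundary set between Hoxc10 and Hoxc9 the difference was 6.86 points, higher in 4 of 4.

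**Figure D4:**
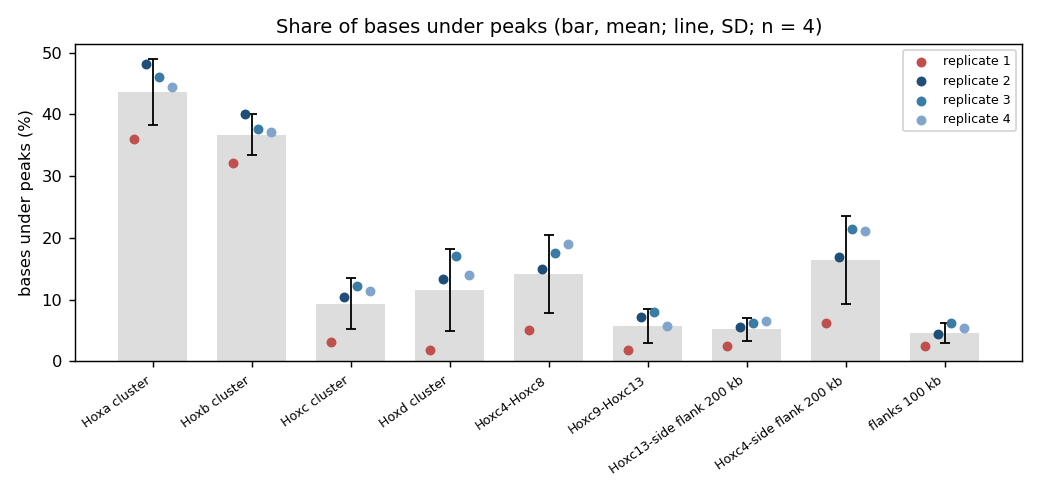
Share of bases under peaks, in percent, for the 4 Hox clusters, for the 2 parts of the Hoxc cluster and for its flanks, as the mean (bar), SD (line) and value of each of 4 libraries (points). Hoxc averages 9.31% against 43.7% for Hoxa and 36.7% for Hoxb, and replicate 1 is the lowest point of each bar.

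The flanks differed from each other. On the Hoxc13 side 2.42%, 5.50%, 6.23% and 6.62% of 200 kb was under peaks, and on the Hoxc4 side 6.26%, 16.9%, 21.5% and 21.1%. The coverage of the cluster minus that of both flanks joined was -1.51 percentage points ± 0.73 (SD, n = 4, lower in 4 of 4, exact permutation p = 0.125, adjusted 0.156). This direction turned when the flanks were cut to 100 kb, with the cluster then 4.70 points higher (exact permutation p = 0.125).

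Towards the Hoxc13 side lay a stretch of 54.9 kb with no peak of any library. Beyond it, peaks gathered near Cistr (chr15:102746605-102747584, percentile 64.0 ± 15.54, SD, n = 4) and in a region reaching the outermost start of the non-coding RNA gene Gm36560 (chr15:102741591-102744802, 89.2 ± 4.14). The summits of that region lay between -1439 and -1429 bp of the Gm36560 start in replicates 2 to 4. In replicate 1 no peak lay within 1 kb of a Gm36560 end. Percentiles reached 99.2 ± 0.27 at Calcoco1, a gene of a transcriptional coactivator at the edge of the interval. On the other side the first shared region (chr15:103060144-103061233, 54.3 ± 13.5) held the outermost Gm30528 start. The strongest regions there lay at and beside Smug1, which encodes a uracil-DNA glycosylase (chr15:103161599-103173794, 91.6 ± 6.08, and chr15:103175835-103185208, 91.9 ± 6.85), and inside Cbx5, which encodes the heterochromatin protein HP1 alpha (chr15:103213731-103216484, 95.2 ± 1.83). In all, the interval held 118 merged regions, 24 of them with a peak of every library, or 20.3%.

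**Figure D5:**
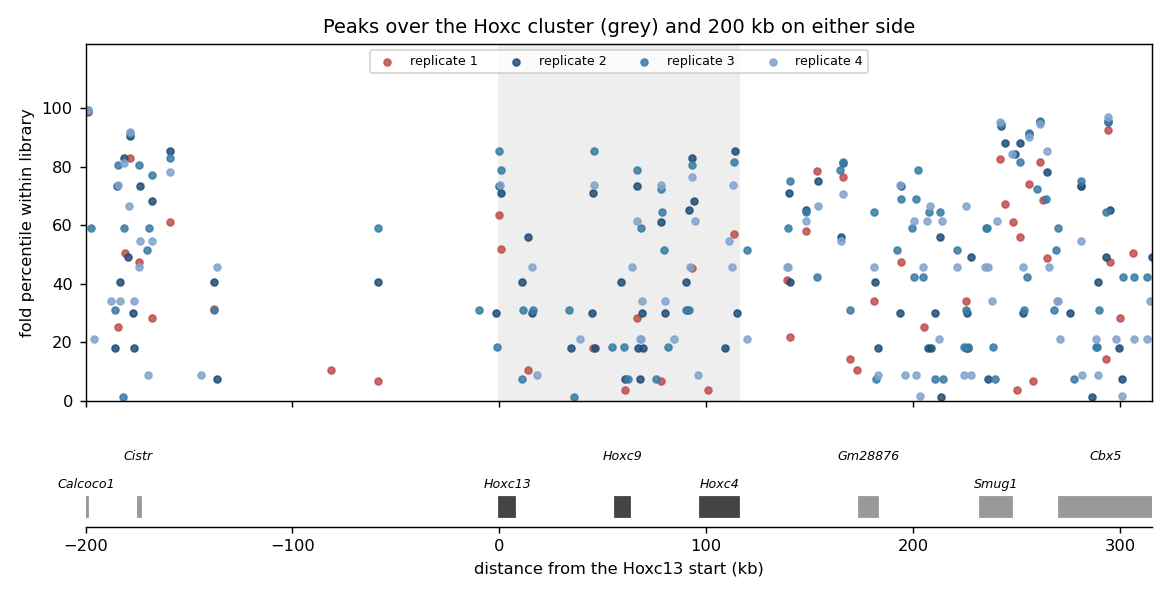
Fold percentile within the library of each peak, at its summit, against distance from the Hoxc13 start in kb, with the cluster in grey and 8 genes as boxes below. The highest points lie at Calcoco1, around Smug1 and in Cbx5, and the highest cluster peak is at 85.5.

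The same rule was applied to genes whose products work with HOX proteins or repress Hox clusters, again beside 66.7% of all protein-coding genes. All 9 HOX cofactor genes of the PBX, MEIS and PKNOX families had a gene-end peak in every library, from a mean percentile of 92.3 ± 1.31 at Meis3 to 99.8 ± 0.13 at Pknox1. Of 13 Polycomb genes, 12 were open in all 4 libraries, and Cbx7 had a gene-end peak in 2.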

How the data were processed

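Each library came with 1 deposited list of narrow peaks. The submitters' processing notes name MACS3 3.0.1, Bowtie2 2.5.2, bedtools 2.31.0, FastQC 0.12.1, SAMtools 1.18, deepTools, Trim Galore and mm10. Their roles and settings, any removal of duplicates and any Tn5 offset are not given in the sources used here. The deposited fold is a ratio made by the authors, of the pileup at the summit over background, used to rank peaks within a library, to recover pileups and to describe how the lists differ. The deposited −log10 p and −log10 q describe the summit, and the lowest −log10 q ranged from 1.32 to 1.87. The deposited score and strand columns were not used. No read totals were used here. In each library 100% of folds under 15 were whole multiples of a fixed step (tolerance 0.02 steps), from which pileups were recovered, the lowest being 7 or 8.

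Only peaks of the 19 autosomes, X and Y entered, with gene positions from GRCm38.p6, the assembly of mm10. Coverage is the share of bases under the merged peaks of a library. Strand was given for 1 of 9 Hoxc genes, so both gene ends replaced the planned gene start. Differences were tested by exact sign-flip permutation with Benjamini-Hochberg adjustment, with a p of 0.05 as threshold, in Python 3.11.15 with numpy 2.4.6 and pandas 2.3.3, checked on simulated data. Alternatives were −log10 q of 5 or more, lists of equal length, no peaks over 10 kb, other windows, flanks and splits, and leaving out each library. Named genes were the Hoxc genes, their paralogs, the 3 Hox genes most like them, genes between and beside them, HOX cofactors and Polycomb genes. Members and lists were chosen with earlier results of these data known.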

Additional observations from a re-analysis of the deposited data

Results flagged for a closer look

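In 27 coverage values of genes and intervals, the highest or lowest of the 4 libraries was compared with the other 3, and chance alone would set about 1 in 20 apart. Replicate 1 stood apart in 2 of them. Peaks covered 1.55% of the stretch from Hoxc13 to Hoxc10 in replicate 1, against 6.37% to 7.33% in the others. They covered 2.69% of the Hoxc6 body in replicate 1, against 16.2% to 18.8%. Replicate 1 also had the fewest peaks of the 4 lists. With lists of equal length the mean Hoxc6 body coverage over the 4 libraries was 12.4%, beside 13.7% with the full lists. The part of list length in the gap between replicate 1 and the others was not tested.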

How the results depend on the processing

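No paired analysis was possible because there is 1 group of samples and no other to pair it with. The 5 coverage differences compare stretches of DNA within each library. Of 37 alternatives for the 5 coverage differences, 36 kept the direction and 1 reversed it. Against flanks of 100 kb the cluster was 4.70 percentage points higher, not lower. Mean coverage was 9.31% for the cluster, 4.61% for flanks of 100 kb and 10.8% for flanks of 200 kb. Why the flanks differed was not tested. No setting brought any of these p-values under 0.05, which 4 libraries do not allow. Hoxc cluster coverage was 5.78% with peaks of −log10 q of 5 or more, 7.73% with lists of equal length, and 8.37% to 11.3% leaving out 1 library. Open Hoxc genes numbered 7 with windows of 2.5 kb and 3 to 6 under the other settings, the 6 without replicate 1 or with at least 3 of 4 libraries. Taking only the lower gene end as the start was chosen after seeing the data and gave 4. Shared regions of the interval numbered 24, 16 with −log10 q of 5 or more, 21 when peaks had to overlap by 50%, and 26 to 33 leaving out 1 library, which asks for 3 libraries instead of 4. Of 63 alternatives for the body coverage of the 9 genes, 61 stayed within 1 SD. With −log10 q of 5 or more Hoxc12, Hoxc11, Hoxc9 and Hoxc8 all went to 0%, which for Hoxc11 and Hoxc8 is within their large SD. The 77 cluster peaks had summit pileups of 8 to 39 with a median of 11, close to the lowest in the lists, so a gene without a peak is one with none detected at this depth.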

Other observations

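The 4 cluster regions found in replicates 2, 3 and 4 but not in replicate 1 lay at the Hoxc12 start (chr15:102936480-102937320), just upstream of Hoxc8 (chr15:102989568-102990255), inside Hoxc6 (chr15:103000465-103001269) and between Hoxc6 and Hoxc5 (chr15:103011995-103013454). The non-coding genes of the cluster differed in their peaks. Gm36878, inside Hoxc9, had a gene-end peak in replicates 1, 2 and 3 at percentiles of 3.68, 40.6 and 18.4. Gm29905, beside Hoxc6, had one in all 4 libraries, at the peak also counted for Hoxc6. Beyond Hoxc4, D930007P13Rik had one in all 4 at a mean percentile of 52.5 ± 24.1 (SD, n = 4), and Gm28876 in 3 of 4 at percentiles of 18.1, 7.39 and 8.73 in replicates 2 to 4.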
